A study of Mus musculus with 2 samples.

Results

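Counts of 7 regulators of blood stem cells, Mecom, Prdm16, Hlf, Mllt3, Myb, Hhex and Zfp36l2, were set side by side in 2 RNA libraries from the mouse embryo. The genes were chosen by name, and all 7 were found among the 24062 genes of the count tables. Negative and positive cells stand below for the sorted groups, each 1 library. Both came from CD31+ KITint cells of the aorta of C57BL6 embryos at embryonic day 11, which the labels call hematopoietic progenitor cells. CD31 is an adhesion molecule of endothelial and blood cells, and KIT is the receptor for stem cell factor. The embryos carried Gata2Venus, a fluorescent transgene that reports on Gata2, a transcription factor needed for blood stem cells to form. The cells were sorted on its fluorescence into a Gata2Venus-negative group (Gata2Venus -, 1 library, 10135400 counts in genes) and a Gata2Venus-positive group (Gata2Venus +, 1 library, 9715131 counts in genes). The labels do not say how many embryos were pooled. With 1 library per group there is no replicate check, no test between the conditions was possible and no p-value is given. All 95% intervals cover counting error only, and reads amplified by PCR with no molecular identifiers are not independent molecules.

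At this stage the first blood stem cells bud from the endothelium that lines the aorta. A small network of transcription factors lets endothelial cells take on blood identity, and a further set of regulators keeps the new cells in a stem cell state. MECOM and PRDM16 are zinc-finger proteins with a PR domain that maintain stem cells, HLF is a basic leucine zipper factor that marks stem cells as they emerge in mice, and MLLT3 joins transcription elongation complexes to acetylated chromatin. MYB drives expansion and differentiation of definitive progenitors, HHEX is a homeobox factor of endothelium, liver and blood progenitors, and ZFP36L2 binds AU-rich elements in messenger RNAs and speeds their decay. ZFP36L2 thus acts on RNA and not on transcription, although the set is named for transcription.

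Hhex was lower in the Gata2Venus-negative library by 7.41-fold, Myb was not detected there, and Mecom, Prdm16, Mllt3 and Zfp36l2 were present in both libraries at levels within 2-fold of each other. Hlf was at or near 0 in both. By CPM, the count relative to library size with TMM factors, 6 of the 7 were lower in the negative library, and 1, Mllt3, was higher. A gene was past the rule of size when its higher library held 10 CPM and 50 counts or more and the whole 95% interval of the ratio was beyond 2-fold. Of the 7 genes, 4 reached that minimum (Mecom, Mllt3, Hhex and Zfp36l2) and 3 did not (Prdm16, Hlf and Myb). Hhex was the only gene of the 7 past the rule, and 0 were past it in the other direction. Over all 10381 genes that reached the minimum, by the same rule 14.9% were lower and 15.2% were higher in the negative library. Only the 4 genes that reached the minimum can be set beside that background. A count of 1 among 4 genes is too small to say anything particular about the set. The log2 ratio of negative over positive had a median of −0.37 for the 4 that reached the minimum, against −0.0023 for all genes that reached it. For all 7 genes, with counts of 0 set to 3, the median was −0.60, the value of Prdm16.

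**Figure D1:**
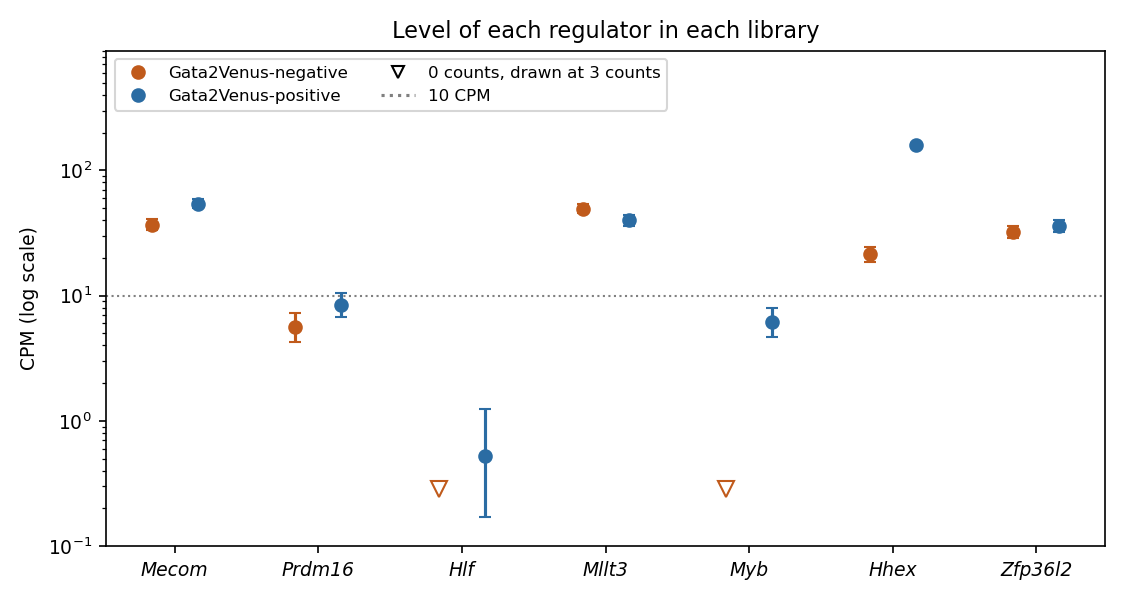
Level of each of the 7 regulators in CPM (log scale) in the Gata2Venus-negative library (orange, left of each pair) and the Gata2Venus-positive library (blue, right). Bars are exact 95% Poisson intervals and open triangles stand for 0 counts, drawn at 3 counts. Hhex is at 21.3 CPM in negative cells and 158 CPM in positive cells, and the pairs for Mecom, Mllt3 and Zfp36l2 lie close together between 32.1 and 54.2 CPM.

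The sort was checked first on its own gene. Gata2 had 141 counts (13.5 CPM) in the negative library and 664 counts (70.2 CPM) in the positive library, so the labels and the counts point the same way, and Gata2 was detected in both. Kit had 199 CPM in negative cells and 60.7 CPM in positive cells, and Pecam1, which encodes CD31, had 537 CPM in negative cells and 489 CPM in positive cells. Defining markers of blood progenitors were partly absent. Spn and Cd27 were at 0 in both libraries and Cd48 at 0 in the negative library. The 12 haematopoietic markers found in the tables summed to 922 CPM in negative cells and 1533 CPM in positive cells. Cd34 was the most abundant of them, at 455 CPM in negative cells and 759 CPM in positive cells. Of the 10 detected, 9 were lower by CPM in the negative library and 1, the gate gene Kit, was higher. Markers of other cells were present and differed. Endothelial markers summed to 3020 CPM in negative cells and 5651 CPM in positive cells, macrophage markers to 215 CPM in negative cells and 956 CPM in positive cells, and megakaryocyte markers to 41.1 CPM in negative cells and 375 CPM in positive cells. Mesenchymal and smooth muscle markers summed to 8709 CPM in negative cells and 5374 CPM in positive cells, and germ cell markers to 371 CPM in negative cells and 36.9 CPM in positive cells. In such mixed material, fewer cells of a type and less RNA per cell cannot be told apart.

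Hhex (ENSMUSG00000024986.12, chromosome 19, 37434810 to 37440731, plus strand, mm10) encodes a homeobox repressor that acts in early endothelium and in blood progenitors. It had 222 counts in the negative library and 1495 counts in the positive library. These counts correspond to 21.3 CPM (interval 18.6 to 24.3) in negative cells and 158 CPM (interval 150 to 166) in positive cells. The negative library was lower by a log2 ratio of −2.89 (interval −3.10 to −2.69), and the intervals of the levels were far apart. Genes whose higher library lay between 50 and 200 CPM, the band of Hhex, were lower in the negative library by the rule in 10.8% of cases. Of the 4435 other genes in that band, 70 (1.58%) had a log2 ratio as low as that of Hhex or lower, and 150 (3.38%) differed by as much in either direction. The share lower by the rule was 21.2% in the band from 10 to 50 CPM and 5.56% above 200 CPM. Hhex carried much of the difference in the summed level of the set, which was 145 CPM in negative cells and 303 CPM in positive cells with it. Without Hhex the sum was 124 CPM in negative cells and 145 CPM in positive cells. The endothelial markers moved the same way, with 6 of 12 lower in the negative library by the rule and 0 higher. So did the macrophage markers, with 8 of 10 lower and 0 higher. Megakaryocyte markers had 7 of 9 lower, granulocytic and monocytic markers 4 of 8 and erythroid markers 3 of 10, each with 0 higher. Of the 12 haematopoietic markers, 5 were lower and 1 was higher. Some lists went the opposite way, with 0 lower in each. By the rule 7 of 14 mesenchymal and smooth muscle, 6 of 8 germ cell, 2 of 5 epithelial and 1 of 8 coelomic and urogenital markers were higher. Over all genes that reached the minimum, 14.9% were lower and 15.2% higher. The part of any of these cell types in the level of Hhex was not tested.

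The window of 250 bases before to 50 bases after the annotated start of Hhex, from RefSeq on GRCm38.p6 (the same assembly as mm10), is shown because Hhex had the only ratio past the rule. It lies at chr19:37434591-37434890 on the plus strand. It was searched on both strands for GATA hexamers, meaning the letters GATA after an A or T and before an A or G, with overlaps counted, and held 0 of them.
Hhex: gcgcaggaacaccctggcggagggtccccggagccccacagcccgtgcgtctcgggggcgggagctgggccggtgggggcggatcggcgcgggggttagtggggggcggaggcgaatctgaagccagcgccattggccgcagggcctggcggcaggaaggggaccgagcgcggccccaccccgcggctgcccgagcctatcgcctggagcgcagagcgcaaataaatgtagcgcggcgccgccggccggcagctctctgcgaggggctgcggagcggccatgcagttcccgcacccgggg
Of 32851 such windows over all genes, 29.8% held at least 1 of these hexamers. A window was found for 6 of the 7 genes, all but Zfp36l2, with 2 windows each for Mecom and Mllt3. Of these 8 windows 3 held a hexamer, both of Mecom and the inner window of Mllt3. A match of letters is not a binding site, and its absence from the window says nothing about GATA2.

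Myb (ENSMUSG00000019982.15, chromosome 10, 21124935 to 21160984, minus strand) encodes the transcription factor that definitive blood progenitors need to expand in mice. It had 0 counts in the negative library and 58 counts in the positive library. Set to 3 counts, the 0 of the negative library corresponds to 0.288 CPM (its exact interval reaches 0.354 CPM), and the level in the positive library was 6.13 CPM (interval 4.66 to 7.93). The exact interval of the log2 ratio of Myb lay below −4.07, and against 3 counts in place of 0 its level was at least 21.3-fold lower in the negative library, a value that leaves out the counting error of the 58 counts. Its level in the positive library was under the minimum of 10 CPM, so Myb was not past the rule. With a minimum of 1 CPM and 10 counts it was past it, as the second of the 7 genes. At that minimum 19.3% of 12868 genes were lower in negative cells. A count of 0 was common among genes with a like count in the other library. Of 595 other genes with 48 to 68 counts in the positive library, 150 (25.2%) had 0 counts in the negative library, and of 458 genes with 48 to 68 counts in the negative library, 105 (22.9%) had 0 counts in the positive. Other genes of maturing blood cells were also at 0 in the negative library alone, among them the erythroid genes Gata1, Klf1, Epor, Hemgn and Car1. The erythroid list as a whole was split, with 6 of 9 detected genes lower and 3, the embryonic globins Hbb-y, Hbb-bh1 and Hba-x, higher by CPM in the negative library. Of 8 granulocytic and monocytic markers, 5 were at 0 in the negative library, and 2 of these, Ctsg and Ms4a3, also in the positive. Elane had 0 counts in negative cells and 28 counts in positive cells. Mpo was detected in both, at 102 CPM in negative cells and 320 CPM in positive cells. The part of blood cell content in the absence of Myb was not tested.

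The start of Myb is shown for comparison, at chr10:21160935-21161234 on the minus strand, printed 5′ to 3′ along the gene. It is rich in G and C, like the window of Hhex, and holds none of the GATA hexamers.
Myb: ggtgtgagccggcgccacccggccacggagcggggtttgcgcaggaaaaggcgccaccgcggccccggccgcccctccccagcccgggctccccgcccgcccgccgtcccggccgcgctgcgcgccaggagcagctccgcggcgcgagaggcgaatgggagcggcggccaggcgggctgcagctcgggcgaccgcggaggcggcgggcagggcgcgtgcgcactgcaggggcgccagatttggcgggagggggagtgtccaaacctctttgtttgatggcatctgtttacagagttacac

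Hlf (ENSMUSG00000003949.16, chromosome 11, 90336536 to 90390895, minus strand), a factor of the proline and acidic amino acid-rich basic leucine zipper family, had 0 counts in the negative library and 5 counts in the positive library. The positive level was 0.529 CPM (interval 0.172 to 1.23). The exact interval of the log2 ratio reached −0.013, close to equal expression. Of the 70 other genes with 5 counts in the positive library, 27 (38.6%) had 0 counts in the negative library. The size of a difference in Hlf could therefore not be resolved at this depth, and 5 counts in 9715131 are all that these libraries hold of this stem cell marker.

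**Figure D2:**
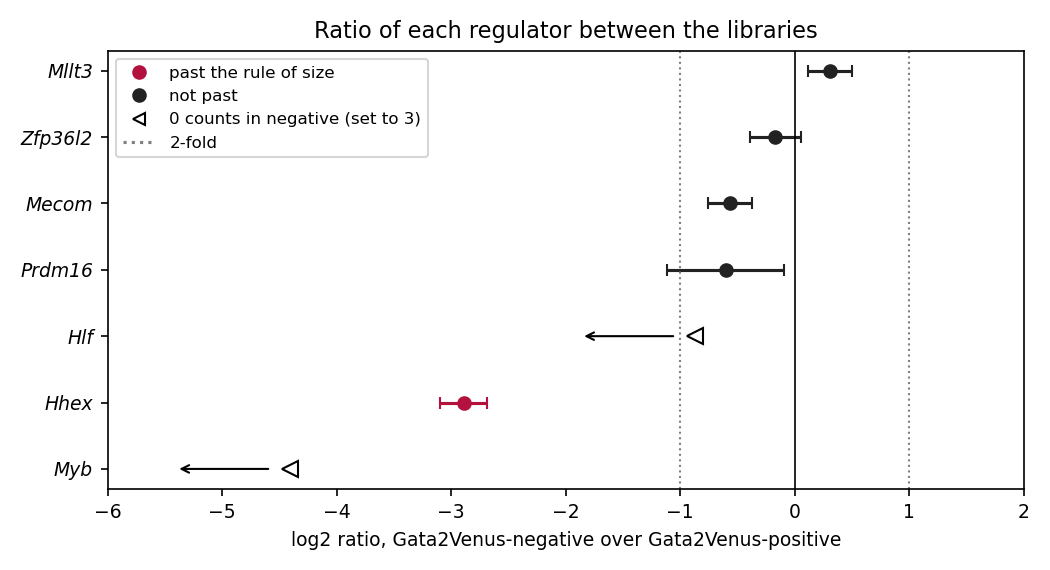
Log2 ratio of the Gata2Venus-negative over the Gata2Venus-positive library for each of the 7 regulators, with exact 95% intervals. Dotted lines mark 2-fold, and open triangles with arrows mark genes at 0 counts in the negative library, set to 3 counts. The interval of Hhex, from −3.10 to −2.69, is the only one of a gene above the minimum level that lies beyond 2-fold, and those of Mecom, Mllt3 and Zfp36l2 lie within it.

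Mecom and Prdm16, which encode closely related PR domain zinc-finger proteins, had similar ratios at different levels. Mecom (ENSMUSG00000027684.16, chromosome 3, 29951296 to 30548008, minus strand) had 382 counts in the negative library and 513 counts in the positive library. Its level was 36.7 CPM (interval 33.1 to 40.6) in negative cells and 54.2 CPM (interval 49.6 to 59.1) in positive cells, a log2 ratio of −0.56 (interval −0.76 to −0.37). The intervals of the levels did not overlap, but the difference was under 2-fold. Of 4435 other genes in the same band of level, 53.4% differed by as much in either direction. Prdm16 (ENSMUSG00000039410.16, chromosome 4, 154316125 to 154636873, minus strand) had 58 counts in the negative library and 80 counts in the positive library. Its level was 5.57 CPM (interval 4.23 to 7.20) in negative cells and 8.46 CPM (interval 6.71 to 10.5) in positive cells, a log2 ratio of −0.60 (interval −1.12 to −0.10). The intervals of its levels overlapped, and both levels were under the minimum. The counts of Mecom take together its long form, with the PR domain, and its short form, known as EVI1, which start far apart. GENCODE vM21 places antisense genes over Mecom, Prdm16, Myb and Zfp36l2. No source used here says whether counting used strand. How reads that lie over both a gene and its antisense partner were counted is therefore not known, and their effect on these counts was not tested.

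The outer start of Mecom and the start of Prdm16 are shown because these paralogs had like ratios and share a stretch of sequence there. The windows lie at chr3:30509710-30510009 and chr4:154636824-154637123, both on the minus strand, and capitals mark the longest stretch that both hold, 24 bases long. It begins 26 bases after the start of Mecom and 9 bases after that of Prdm16. The stretch ends at the last base of the Mecom window, and whether the genes share sequence past that edge was not tested.
Mecom, outer start: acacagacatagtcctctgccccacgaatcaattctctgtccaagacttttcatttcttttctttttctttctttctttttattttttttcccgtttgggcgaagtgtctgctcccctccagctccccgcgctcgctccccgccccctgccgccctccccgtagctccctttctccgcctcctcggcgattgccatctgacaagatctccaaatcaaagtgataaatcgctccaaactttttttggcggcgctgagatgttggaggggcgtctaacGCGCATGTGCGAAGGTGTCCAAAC
Prdm16: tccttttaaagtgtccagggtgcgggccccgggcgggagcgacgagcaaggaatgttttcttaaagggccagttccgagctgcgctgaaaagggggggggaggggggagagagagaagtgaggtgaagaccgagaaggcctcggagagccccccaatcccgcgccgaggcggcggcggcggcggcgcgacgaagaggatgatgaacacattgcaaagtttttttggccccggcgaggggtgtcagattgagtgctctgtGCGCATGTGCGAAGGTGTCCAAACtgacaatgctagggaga
Of the 32851 windows, 2 hold this stretch on either strand, those of Mecom and Prdm16. These windows hold it by construction, since the stretch was taken from them, so the count is no test of a shared element. A link between the stretch and the ratios was not tested. The outer Mecom window also holds TGATAA, which begins 31 bases before the start. The inner window of Mecom, at chr3:30013155-30013454 on the minus strand, is shown because it holds another of the hexamers, AGATAG in capitals, 27 bases before its start.
Mecom, inner start: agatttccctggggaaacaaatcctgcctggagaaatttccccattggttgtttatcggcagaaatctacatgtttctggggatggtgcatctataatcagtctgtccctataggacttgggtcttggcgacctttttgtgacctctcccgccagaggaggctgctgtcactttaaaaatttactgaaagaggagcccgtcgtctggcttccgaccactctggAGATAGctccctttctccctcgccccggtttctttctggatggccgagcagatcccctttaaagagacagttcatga
The levels of the libraries do not separate the starts, since the tables give 1 count per gene.

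Mllt3 (ENSMUSG00000028496.17, chromosome 4, 87769925 to 88033364, minus strand), a reader of acetylated histones that recruits elongation factors and the methyltransferase DOT1L, was the only one of the 7 with a higher level in the negative library. It had 515 counts in the negative library and 378 counts in the positive library. The level was 49.5 CPM (interval 45.3 to 53.9) in negative cells and 39.97 CPM (interval 36.0 to 44.2) in positive cells, a log2 ratio of 0.31 (interval 0.11 to 0.50). The intervals of the levels did not overlap, the ratio was within 2-fold, and 82.0% of 4721 other genes of 10 to 50 CPM differed by as much in either direction. Zfp36l2 (ENSMUSG00000045817.8, chromosome 17, 84183931 to 84187947, minus strand) had 334 counts in the negative library and 341 counts in the positive library. The level was 32.1 CPM (interval 28.7 to 35.7) in negative cells and 36.1 CPM (interval 32.3 to 40.1) in positive cells, a log2 ratio of −0.17 (interval −0.39 to 0.05). Zfp36l2 was the only one of the 7 whose ratio had an interval that held equal expression, and 89.2% of the 4721 other genes in its band differed by as much or more. For 86.3% of all genes above the minimum the interval excluded equal expression.

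**Figure D3:**
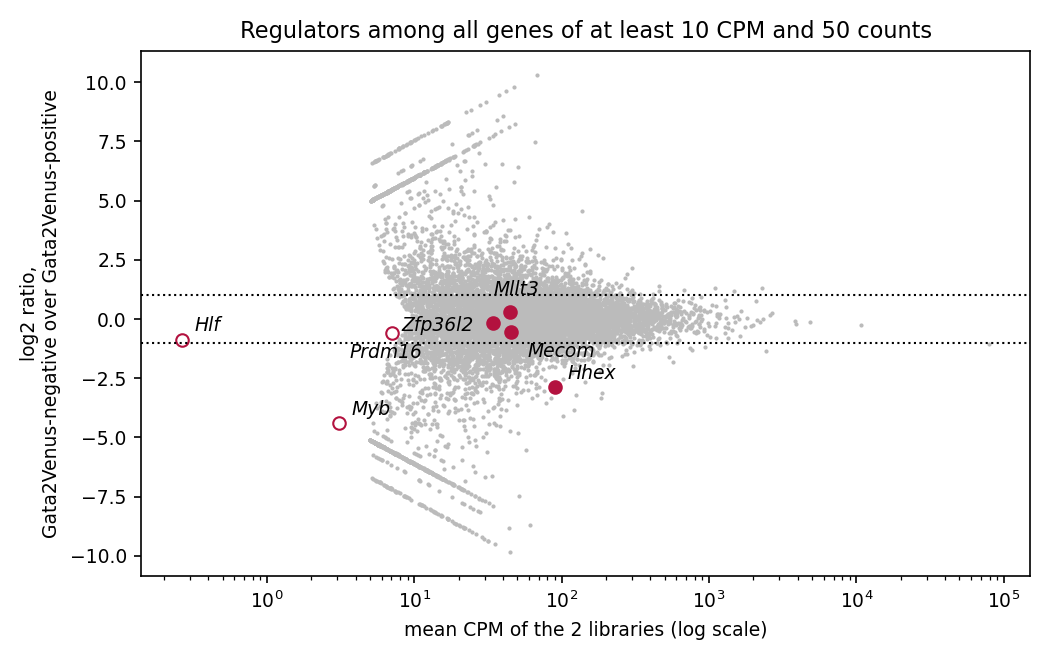
Log2 ratio of the Gata2Venus-negative over the Gata2Venus-positive library against mean CPM (log scale) for all genes of at least 10 CPM and 50 counts (grey) and the 7 regulators (red, filled above that minimum and open below it). Dotted lines mark 2-fold and a count of 0 is set to 3 counts. Mecom, Mllt3 and Zfp36l2 lie in the dense middle of the cloud, and Hhex lies near its lower edge at a mean of 89.7 CPM.

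Within a library, the genes were ordered by CPM per kilobase of annotated exon. In the negative library Zfp36l2 was highest at 9.09 CPM per kb (interval 8.14 to 10.1), ahead of Hhex at 4.22 (interval 3.68 to 4.81) and Mllt3 at 4.12 (interval 3.77 to 4.49). Hhex and Mllt3 did not differ beyond their intervals. Mecom followed at 2.95 and Prdm16 at 0.598, with Hlf and Myb at 0. In the positive library Hhex was highest at 31.3 CPM per kb (interval 29.7 to 32.9), ahead of Zfp36l2 at 10.2, Mecom at 4.36 (interval 3.995 to 4.76) and Mllt3 at 3.33 (interval 3.002 to 3.68). Prdm16 at 0.907 (interval 0.720 to 1.13) and Myb at 0.687 (interval 0.521 to 0.887) did not differ beyond their intervals, and Hlf was lowest at 0.0791. Hhex thus stood second of the 7 in the negative library and first in the positive. Per kilobase of coding sequence, Mllt3 was first and Zfp36l2 came after Hhex in the negative library, so the order at the top of that library depends on the length used. In the positive library Mllt3 then stood ahead of Mecom and Myb ahead of Prdm16, the reverse of the order by exon length.

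**Figure D4:**
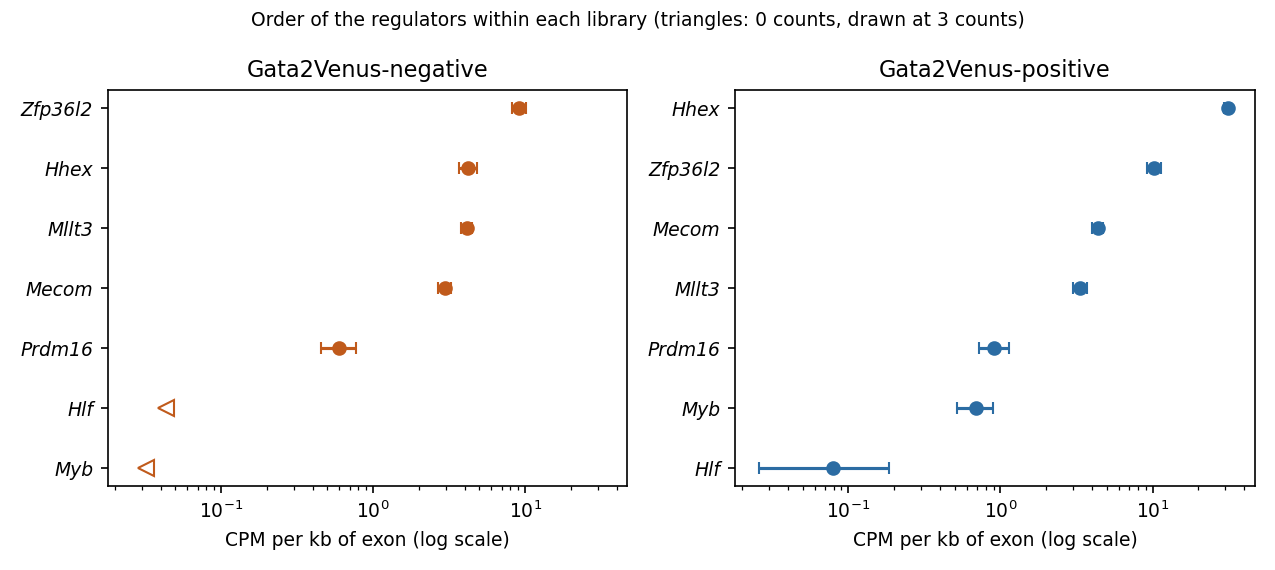
Order of the 7 regulators by CPM per kilobase of exon (log scale) in the Gata2Venus-negative library (left panel) and the Gata2Venus-positive library (right panel), with exact 95% Poisson intervals. Open triangles stand for 0 counts, drawn at 3 counts. Hhex leads the positive library at 31.3 and Zfp36l2 leads the negative library at 9.09.

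Other genes of the same families and complexes were described from 9 lists. Their counts by the rule stand beside 14.9% lower and 15.2% higher over all genes that reached the minimum. In the PRDM family, 13 other genes were listed, 7 reached the minimum, 1 was lower in the negative library by the rule and 2 were higher. The median log2 ratio of the 7 was −0.43. Prdm9, which directs recombination in meiosis, had 0 counts in negative cells and 123 counts in positive cells (interval of the log2 ratio below −5.18). Prdm10 had 209 counts in negative cells and 1 count in positive cells, a log2 ratio of 7.57 (interval 5.07 to 12.9). Prdm14, a regulator of primordial germ cells, had 526 counts in negative cells and 0 counts in positive cells (interval of the log2 ratio above 7.01). Prdm14 is itself in the list of germ cell markers, of which 6 of 8 were higher in the negative library by the rule, against 15.2% of all genes. Dppa3 had 983 counts in negative cells and 1 count in positive cells. Germ cells carry KIT, as the sorted cells do, and their part in these values was not tested. Of 10 corepressor genes for MECOM and PRDM16, 0 were past the rule and 9 reached the minimum, with a median of 0.30. Rcor1, under the minimum, had 12 counts in negative cells and 60 counts in positive cells (log2 ratio −2.46, interval −3.49 to −1.55). With a minimum of 1 CPM and 10 counts, 1 corepressor gene was lower in negative cells. The count was also 1 with totals without the 100 most abundant genes, and with 2-fold without the interval. The histone deacetylase genes Hdac2 and Hdac3, the most abundant of them, had 140 CPM in negative cells and 298 CPM in positive cells for Hdac2, and 198 CPM in negative cells and 159 CPM in positive cells for Hdac3.

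The relatives of HLF and the partners of MLLT3 held few genes past the rule. Nfil3, a repressor that binds the same DNA sites as HLF, had 57.3 CPM in negative cells and 22.5 CPM in positive cells (log2 ratio 1.35, interval 1.12 to 1.58). Dbp, a close relative of Hlf, had 40 counts in negative cells and 0 counts in positive cells, under the minimum, and Tef was at 0 in both. Of 16 partners of MLLT3 in elongation and in the DOT1L complex, 1 was lower and 1 higher in the negative library by the rule, 12 others reached the minimum without passing it, and the median of the 14 was −0.19. Ell2, an elongation factor, had 4 counts in negative cells and 203 counts in positive cells (log2 ratio −5.80, interval −7.69 to −4.43). Aff1, a scaffold of the elongation complex, had 23.9 CPM in negative cells and 6.13 CPM in positive cells (log2 ratio 1.96, interval 1.55 to 2.40). Of 7 genes for relatives, coactivators and other partners of MYB, 0 were past the rule. The median of the 6 that reached the minimum was −0.56. The most abundant were Mybbp1a, a nucleolar protein that binds MYB, at 838 CPM in negative cells and 493 CPM in positive cells, and Hipk2, a kinase, at 38.0 CPM in negative cells and 55.3 CPM in positive cells.

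The TLE genes encode proteins of the Groucho family, some of which HHEX recruits to silence its targets. Whether HHEX recruits each of the 6 listed was not tested. Of 6 TLE genes 5 reached the minimum, with a median of 1.15, and 1 was higher in the negative library by the rule, near the 15.2% of all genes. By CPM alone 5 of the 6 were higher, among them Tle1, whose interval (−0.14 to 0.47 on the log2 scale) held equal expression. Tle6 was the gene past the rule, with 136 counts in negative cells and 1 count in positive cells (log2 ratio 6.95, interval 4.45 to 12.3). Tle3 had 86.5 CPM in negative cells and 39.0 CPM in positive cells, and its interval (0.97 to 1.33 on the log2 scale) reached just inside 2-fold. Tle2 had 80 counts in negative cells and 0 counts in positive cells, under the minimum of CPM. With library totals in place of TMM factors, 2 TLE genes were past the rule.

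Of the ZFP36 family and the CCR4-NOT deadenylase, which ZFP36 proteins recruit to shorten poly(A) tails, 15 genes other than Zfp36l2 were listed and 14 reached the minimum. By the rule 2 were lower and 2 higher in negative cells, against 14.9% and 15.2% of all genes, and the median was 0.065. With library totals in place of TMM factors 1 was lower, and with an interval beyond 4-fold 0 were past the rule in either direction. The catalytic subunit genes Cnot6 and Cnot6l were lower, at 50.5 CPM in negative cells and 116 CPM in positive cells for Cnot6, and at 15.8 CPM in negative cells and 70.0 CPM in positive cells for Cnot6l. Cnot8, another catalytic subunit, and Rqcd1, a conserved scaffold subunit, were higher, at 165 CPM in negative cells and 71.9 CPM in positive cells for Cnot8, and at 287 CPM in negative cells and 123 CPM in positive cells for Rqcd1. The paralogs of Zfp36l2, named here after their values were seen, were not past the rule. Zfp36 had 38.4 CPM in negative cells and 62.1 CPM in positive cells, and Zfp36l1 had 188 CPM in negative cells and 241 CPM in positive cells.

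The element that ZFP36 proteins bind is shown at a reported target and at paralogs of Zfp36l2 that hold it. The DNA letters TTATTTATT, read on the strand of the messenger RNA, were searched after the stop codon of the longest such region of each gene in GENCODE vM21. They were found in 1611 of 21022 genes (7.66%), a share that depends on the length of the region. Zfp36l2 held the element, as did its paralogs Zfp36 and Zfp36l1 and, among genes reported as downstream of the set, Notch1 and Bcl2. Of the CCR4-NOT genes searched, Cnot6l held it. The paralog Zfp36l3, with a region of 20 bases, did not. The other 6 of the 7 regulators did not hold these letters. Capitals mark the element.
Notch1: taaatgctgtTTATTTATTgattgcttct
Zfp36: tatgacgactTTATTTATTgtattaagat
Zfp36l1: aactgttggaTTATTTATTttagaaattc
Notch1, the receptor gene whose messenger RNA is a reported target of ZFP36L1 and ZFP36L2 in mouse thymocytes, had 53.5 CPM in negative cells and 183 CPM in positive cells (log2 ratio −1.77, interval −1.91 to −1.63), while Zfp36l2 was at 32.1 CPM in negative cells and 36.1 CPM in positive cells.

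Of 9 genes reported as downstream of the set, 8 reached the minimum (median −0.19). By the rule 2 were lower and 1 higher in negative cells, against 14.9% and 15.2% of all genes. Gata2 and Notch1 were the lower genes, and Gata2, a reported target of MECOM, is no finding, since the cells were sorted on its reporter. Kit, reported as activated by MYB, was higher in the library without Myb counts, at 2072 counts in negative cells and 574 counts in positive cells (log2 ratio 1.71, interval 1.58 to 1.85). Kit was also the gate of both groups. Of 8 germ cell markers, 7 were higher by CPM in the negative library and 1, Prdm1, was lower. The part of germ cells in the level of Kit was not tested. The other reported targets of MYB were not past the rule, with Myc at 120 CPM in negative cells and 136 CPM in positive cells and Bcl2 at 13.6 CPM in negative cells and 29.0 CPM in positive cells. Mfn2, a reported target of PRDM16, had a log2 ratio of −0.027, and Cdkn2a, which HHEX is reported to repress, was at 0 in both libraries.

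In the wider network of stem cell transcription factors, several genes were lower in the negative library. Of 22 such factors 18 reached the minimum, 9 were lower in negative cells by the rule and 0 were higher (median −1.21), against 14.9% lower over all genes. The count lower in negative cells was 4 with an interval beyond 4-fold and 2 when libraries were assumed to vary with a coefficient of variation of 0.4. With library totals in place of TMM factors 1 factor was higher in negative cells by the rule. Gfi1b had 0 counts in negative cells and 252 counts in positive cells (interval of the log2 ratio below −6.22). Runx1, which drives the change from endothelium to blood, had 21 counts in negative cells and 303 counts in positive cells (log2 ratio −3.99, interval −4.70 to −3.35). Lyl1 had 16.6 CPM in negative cells and 84.4 CPM in positive cells (log2 ratio −2.34, interval −2.59 to −2.11). Gata2 is also in this list, and the lists are not independent evidence, since they were chosen with results of these libraries known. The difference between this list and the 7 regulators was not tested.

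**Figure D5:**
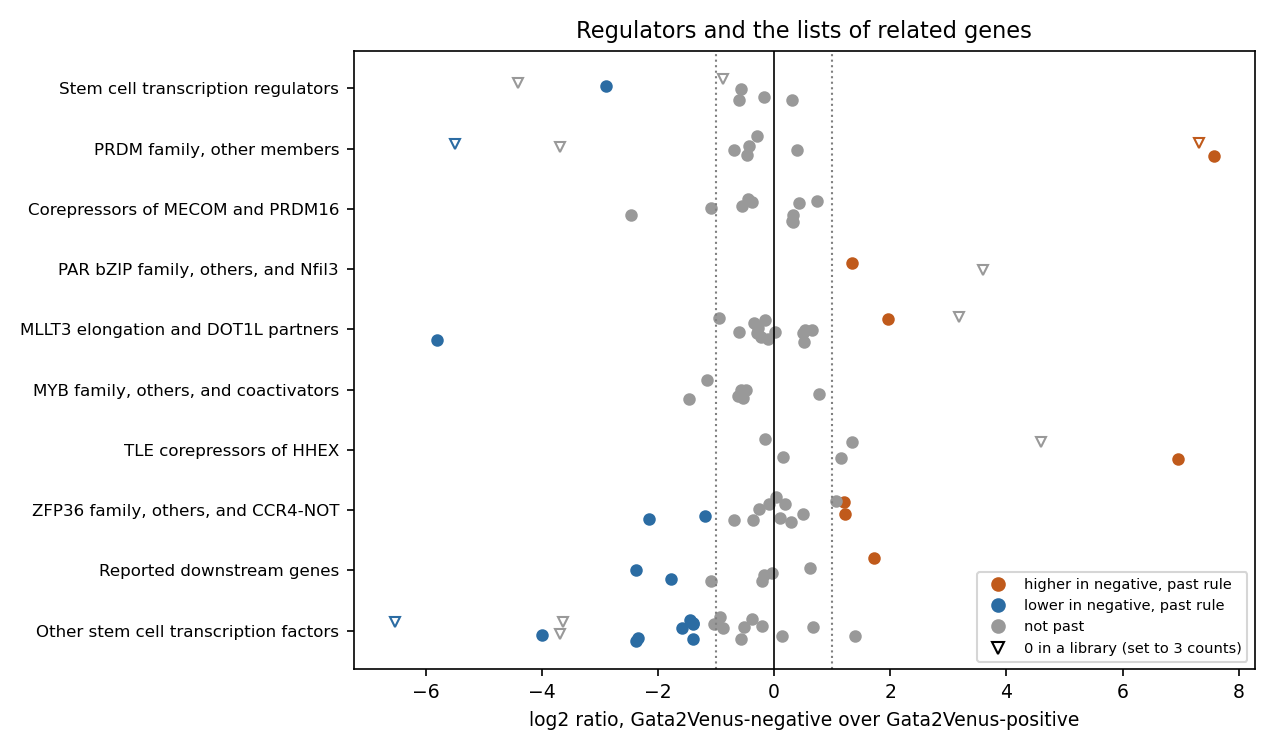
Log2 ratio of the Gata2Venus-negative over the Gata2Venus-positive library for the 7 regulators (top row) and the 9 lists of related genes, with 1 point for each gene detected in either library. Orange points are higher and blue points lower in the negative library past the rule of size, grey points are not past it, and open triangles have 0 counts in a library, set to 3 counts. The bottom list, other stem cell factors, holds 9 blue and 0 orange points.

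The listed gene nearest in level to each regulator, by distance on the log2(CPM + 0.5) scale over the 2 libraries, was taken from 91 detected genes of the lists. Mecom had the closest match, Mybl2, at a distance of 0.057, with 37.7 CPM in negative cells and 52.8 CPM in positive cells. Zfp36l2 was nearest to Prdm4 (distance 0.19), Mllt3 to Cnot3 (0.30), Hlf to Mybl1 (0.47), Myb to Cebpa (0.66) and Prdm16 to Prdm6 (0.67). Hhex had no close match, its nearest gene being Etv6 at a distance of 0.94, with 30.1 CPM in negative cells and 90.6 CPM in positive cells. With 2 libraries, nearness in level says only that the levels were alike.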

How the data were processed

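Per the submitters' processing notes, TopHat, Cufflinks and HTSeq were used with build mm10, and per the labels' protocols RNA was taken with the mirVana kit and amplified by SMARTER. No source used here gives versions, annotation or strand. The authors deposited whole-number counts per gene symbol, 1 table per library, not normalized. The 5 rows that name no gene held 51.9% of the negative and 56.6% of the positive table and were left out of all sizes. Most of this was reads aligned to more than 1 place (45.5% in negative and 48.2% in positive cells), and reads outside any gene were 5.93% in negative and 8.00% in positive cells.

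From these counts, CPM used edgeR 4.0.16 TMM factors (1.03 for negative and 0.974 for positive cells, R 4.3.3). Levels have exact Poisson intervals and ratios exact Clopper-Pearson intervals (scipy 1.17.1), at 95%. For folds and medians a count of 0 was set to 3 counts, 0.288 CPM in negative and 0.317 CPM in positive cells. Calls used the rule of size, with no test. The steps were also run on simulated data, and no result of that run is given here. Named genes were all 7 regulators, Gata2, Kit and Pecam1, from each list up to 4 genes past the rule, ranked by the near bound of the interval, or the 2 most abundant where fewer than 2 passed, and the nearest gene of each regulator. Coordinates and lengths came from GENCODE vM21 and sequences from RefSeq or GENCODE. Alternatives were other scalings, among them DESeq2 1.42.0 size factors, other minimums, other size rules, 0.5 counts added, and coding length. The genes and lists were chosen with earlier results of these data known. Lists of 9 or fewer genes could be given in full, and other genes of the lists and markers were named after their values were seen.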

Additional observations from a re-analysis of the deposited data

How the results depend on the processing

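The median log2 ratio of the 7 regulators lay between −0.61 and −0.53 under the alternatives. With a minimum of 1 CPM and 10 counts, and with no minimum, 2 regulators were lower in the negative library in place of 1, the added gene being Myb. Both alternatives lower the minimum that keeps Myb out. Hhex was past the rule under every scaling, under the 4-fold rule and when a coefficient of variation of 0.4 between libraries was assumed. Over all genes, 683 were lower and 641 higher under that assumption, against 1545 and 1582, and 751 and 744 under the 4-fold rule. With at least 50 CPM they were 545 and 629, and with no minimum 2503 were lower. Nfil3, Aff1, Kit, Notch1 and the 4 CCR4-NOT genes past the rule were not past it at 4-fold or under that assumption. Among 225 further values, 51 moved, either a count by over 1.5 times or a rank, and the cause was not tested. Each of the 7 genes kept the sign of its log2 ratio under the 3 other scalings, with counts of 0 set to 3. No paired analysis was possible because each group has 1 library, and no library could be left out. Depth limits Hlf, whose interval comes close to equal expression, and widens that of Prdm16, which had 58 counts in negative cells and 80 in positive cells.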
